A study of Arabidopsis thaliana with 12 samples.

Results

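The response of wild-type Arabidopsis thaliana seedlings to a short gibberellin treatment was measured by RNA sequencing. It was read from 6 libraries of a series of 12, namely 3 libraries of seedlings given gibberellin A3 in the presence of paclobutrazol (PAC+GA3) against 3 of seedlings kept in paclobutrazol alone (PAC). The seedlings were wild type of the Nossen accession (No-0), 7 days old and harvested whole. All of them, the PAC seedlings included, spent 18 h in liquid medium with 10 µM PAC. They then stayed for 5 h in 10 µM PAC, with 100 µM GA3 added for the PAC+GA3 group and nothing added for the PAC group. The other 6 libraries came from 35S::KNAT1 seedlings, which express the homeobox gene KNAT1 from the 35S promoter and went through both media in the same way, also as 3 libraries each. Each library carries the letter A, B or C in its label, which stands for replicate 1, 2 or 3 in every group. The labels do not say what the letter marks, how many seedlings went into a library, or whether replicates were grown apart from each other. The p-values therefore rest on differences among these libraries that could be technical alone.

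Gibberellins (GA) are plant growth hormones. GA binds the receptor GID1, the complex of both takes hold of the DELLA proteins, and an F-box protein, SLY1, then marks the DELLA proteins for destruction. DELLA proteins hold back growth and also keep the genes of late GA synthesis and of the GA receptors active, so that in seedlings short of GA these genes run high, and GA turns them down by feedback. Paclobutrazol blocks an early step of GA synthesis, the oxidation of ent-kaurene, so seedlings in PAC are short of their own GA and GA3 supplied from outside acts beyond the block.

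Total counts ran from 10278956 to 14053594 in the wild-type libraries and from 9232836 to 14053594 over all 12, and 19879 of the 32673 genes in the table passed the filter on low counts. Organelle genes took 0.16% to 0.263% of counts in the PAC+GA3 libraries, against 0.174%, 0.944% and 0.676% in PAC replicates 1, 2 and 3. An rRNA gene, AT3G41768, took 0.144% to 0.197% in PAC+GA3, against 0.171%, 0.488% and 0.347% in PAC. The 107 rRNA and organelle genes tested had a median log2 difference of -1.57 and none was called. KNAT1 stood at 21.6 to 22.5 CPM (counts scaled to the library total) in PAC+GA3 and at 17.6 to 24.6 CPM in PAC, and at 389 to 482.8 CPM in the 35S::KNAT1 libraries. In whole seedlings, less RNA of a gene per cell and fewer cells that express it cannot be told apart.

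Promoter sequences are shown for 8 called genes that the results below turn on, with and without the motifs searched: GA20OX2, GA3OX1 and SCL3, which fell the furthest among GA synthesis and signalling genes, the receptor genes GID1A and GID1B, the wall-loosening gene EXPA2 and the anthocyanin genes DFR and LDOX. Each is the 300 bases before the gene's start in the deposited table, read 5′ to 3′ on the gene's strand from the RefSeq genome TAIR10.1, whose genes overlapped those of the table at all 31901 loci compared. Capitals mark matches to any of 4 short motifs searched on both strands. These were the core TTTGTC of the motif bound by INDETERMINATE DOMAIN (IDD) proteins, zinc finger partners of DELLA proteins, the G-box CACGTG bound by bHLH and bZIP factors, the auxin response element TGTCTC, and the GA response element TAACAAA known from cereal promoters.
GA20OX2, chr5:21056809-21057108, minus strand: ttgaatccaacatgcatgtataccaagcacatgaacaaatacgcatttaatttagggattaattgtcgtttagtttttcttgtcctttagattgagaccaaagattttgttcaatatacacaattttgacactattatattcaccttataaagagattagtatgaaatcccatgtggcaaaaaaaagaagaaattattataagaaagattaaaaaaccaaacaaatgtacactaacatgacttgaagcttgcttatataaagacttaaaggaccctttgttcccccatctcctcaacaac
GA3OX1, chr1:5346167-5346466, minus strand: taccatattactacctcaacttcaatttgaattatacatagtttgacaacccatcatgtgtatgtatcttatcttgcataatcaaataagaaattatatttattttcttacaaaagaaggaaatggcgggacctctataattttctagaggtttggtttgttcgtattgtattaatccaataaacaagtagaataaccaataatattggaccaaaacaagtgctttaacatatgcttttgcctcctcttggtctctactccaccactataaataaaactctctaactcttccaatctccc
SCL3, chr1:18680118-18680417, minus strand: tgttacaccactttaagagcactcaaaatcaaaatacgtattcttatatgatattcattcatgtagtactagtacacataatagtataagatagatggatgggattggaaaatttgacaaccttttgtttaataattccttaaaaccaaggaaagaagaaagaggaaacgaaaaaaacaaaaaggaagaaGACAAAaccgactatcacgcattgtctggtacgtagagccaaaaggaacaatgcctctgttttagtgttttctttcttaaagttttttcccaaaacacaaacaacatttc
GID1A, chr3:1430171-1430470, plus strand: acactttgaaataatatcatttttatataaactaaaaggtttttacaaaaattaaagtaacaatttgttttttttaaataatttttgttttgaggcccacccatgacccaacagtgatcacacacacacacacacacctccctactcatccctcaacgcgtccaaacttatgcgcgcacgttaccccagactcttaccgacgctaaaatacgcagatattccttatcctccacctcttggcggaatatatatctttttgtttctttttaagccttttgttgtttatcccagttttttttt
GID1B, chr3:23289125-23289424, plus strand: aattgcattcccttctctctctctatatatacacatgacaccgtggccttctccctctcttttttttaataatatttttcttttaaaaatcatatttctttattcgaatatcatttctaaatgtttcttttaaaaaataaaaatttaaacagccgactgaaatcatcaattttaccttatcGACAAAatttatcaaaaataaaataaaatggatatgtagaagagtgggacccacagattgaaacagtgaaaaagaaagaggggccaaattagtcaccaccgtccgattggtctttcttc
EXPA2, chr5:1568394-1568693, plus strand: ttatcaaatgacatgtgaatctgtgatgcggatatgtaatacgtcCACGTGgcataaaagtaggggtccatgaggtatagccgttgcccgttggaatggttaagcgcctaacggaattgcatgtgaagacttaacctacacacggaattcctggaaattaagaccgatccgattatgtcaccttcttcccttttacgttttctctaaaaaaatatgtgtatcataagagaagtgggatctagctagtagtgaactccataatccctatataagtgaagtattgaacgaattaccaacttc
DFR, chr5:17165919-17166218, minus strand: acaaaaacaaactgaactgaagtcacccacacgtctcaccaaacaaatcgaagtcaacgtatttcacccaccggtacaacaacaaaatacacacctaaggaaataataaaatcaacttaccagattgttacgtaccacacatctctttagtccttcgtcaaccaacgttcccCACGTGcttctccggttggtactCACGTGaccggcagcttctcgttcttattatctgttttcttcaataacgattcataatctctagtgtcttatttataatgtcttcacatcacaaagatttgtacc
LDOX, chr4:12006210-12006509, minus strand: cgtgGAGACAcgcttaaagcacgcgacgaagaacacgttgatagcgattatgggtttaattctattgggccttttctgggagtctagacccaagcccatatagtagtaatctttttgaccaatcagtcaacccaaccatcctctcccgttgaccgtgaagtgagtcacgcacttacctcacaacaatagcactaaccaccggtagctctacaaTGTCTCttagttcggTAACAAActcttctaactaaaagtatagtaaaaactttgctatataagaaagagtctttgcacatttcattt

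The IDD core began 110 bases before the gene start in SCL3 and 119 bases before it in GID1B. DFR held the G-box at 128 and 105 bases and EXPA2 at 255 bases before the start, and LDOX held the GA element at 72 and the auxin element at 296 and 87 bases before it. The windows of GA20OX2, GA3OX1 and GID1A held none of the 4, so 1 of the 2 called receptor genes held the IDD core and the other did not. Among all 19777 windows of tested nuclear genes, 29.1% held the IDD core, 9.84% the G-box, 14.4% the auxin element and 18.1% the GA element. Among the 45 genes lower after GA3 the shares were 48.9% (22 genes), 11.1%, 26.7% and 20%. Among the 49 higher genes they were 10.2% (5 genes), 6.12%, 22.4% and 16.3%. The IDD core was seen in more of the lower and fewer of the higher genes than in all genes, which is a description of these windows without a test. With a window of 250 bases before and 50 after the start, the core was in 42.2% of lower, 8.16% of higher and 28.5% of all genes. The IDD core and the auxin element share the letters TGTC, so that the core followed by TC counts for both.

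At an adjusted p below 0.05, 49 genes were higher and 45 lower in PAC+GA3 than in PAC, which is 0.473% of the 19879 genes tested (0.246% higher and 0.226% lower). The genes that fell included GA synthesis, GA receptor and anthocyanin genes, and those that rose included expansin and xyloglucan endotransglucosylase/hydrolase (XTH) genes and the DELLA genes GAI and RGL1. Only 3 of the higher and 10 of the lower genes changed by 2-fold or more, and the median log2 change was 0.49 among the higher and -0.54 among the lower genes. Before adjustment, 2425 genes (12.2% of those tested) had a p below 0.05. If no gene differs and the p-values are well calibrated, 994 are expected. The 94 are not taken as a count of all genes that differ, and how much of the excess is due to GA3 was not tested. All 94 called genes moved in the same direction in the 3 same-letter pairs, as did 33.2% of all tested genes. The median log2 change of the higher genes was 0.46, 0.54 and 0.54 in pairs A, B and C, and that of the lower genes was -0.56, -0.63 and -0.63. In 82 of the 94 genes no PAC+GA3 library overlapped a PAC library. Among all tested genes, 5.89% lay wholly higher and 5.94% wholly lower in this way. The 94 were called from these same libraries with the letter as a block, so neither the shared direction nor the separation is independent support.

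How many genes passed depended on the model, while none of the 94 changed direction in any of 26 alternative fits. Those fits used the same libraries or part of them, so a kept direction is no independent support. The test was edgeR's quasi-likelihood test with 4 group means over all 12 libraries and the replicate letter as a block, and without the block 3 genes were higher and 6 lower. These 9 genes were GA20OX2, GA3OX1, SCL3, CAX1, RCI2B, TYRDC, AT1G18980, AT1G33790 and AT5G45650. With the block fitted within each genotype, 124 were higher and 114 lower, and all 94 genes were among them. Without PAC replicate 3 there were 16 calls (15 of the 94 among them), without PAC replicate 2 there were 39 (33 of the 94). Without PAC replicate 1 there were 55 (35 of the 94), without PAC+GA3 replicate 1 there were 61 (39 of the 94). Without PAC+GA3 replicate 3 there were 62 (39 of the 94). Leaving out any of the 12 libraries in turn kept 9 of the 94 genes called every time, namely GA20OX2, GA3OX1, SCL3, LDOX, CAX1, RCI2B, ADS1, AT1G18980 and AT1G33790. Without PAC replicates 2 and 3 and 35S::KNAT1 PAC+GA3 replicate 1, the 3 libraries with a high rRNA share, no gene was called by edgeR, with 872 at an unadjusted p below 0.05. That fit has only 1 wild-type PAC library, which is taken to vary like the other groups. With the rRNA and organelle genes taken out of the table instead, 140 genes were called, all 94 among them. The part of the rRNA share in these counts was not tested further.

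**Figure D1:**
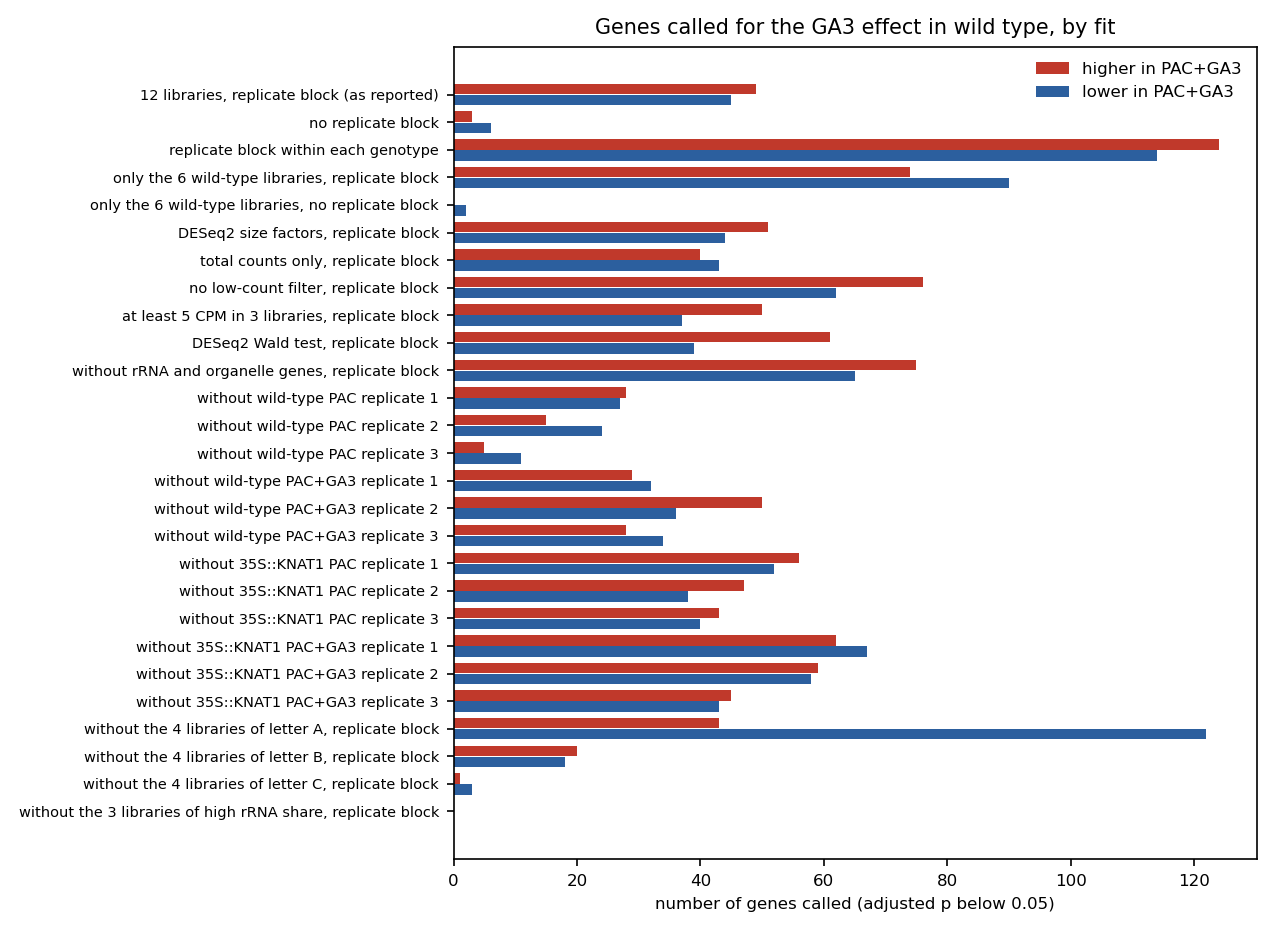
Number of genes called higher (red) and lower (blue) in PAC+GA3 against PAC of wild type, at an adjusted p below 0.05, in each fit named on the vertical axis. The top pair of bars is the fit reported here, with 49 higher and 45 lower, and the counts run from 0 without the 3 libraries of high rRNA share to 238 with the block fitted within each genotype.

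GA 20-oxidases and GA 3-oxidases carry out the last steps that make bioactive GA, and GA20OX2 and GA3OX1 had the largest falls among the GA genes. GA20OX2 (AT5G51810, chromosome 5, 21055188 to 21056808 on TAIR10, the build of all gene positions here) stood at 0.731, 0.823 and 1.09 CPM in the PAC+GA3 libraries of letters A, B and C, against 3.47, 8.78 and 7.43 CPM in the PAC libraries. Every PAC+GA3 library lay below every PAC library, and PAC replicate 1 was the lowest of its group. The log2 change was -2.82 ± 0.23 (SE), with an adjusted p of 6.58e-06, the smallest of all genes. GA3OX1 (AT1G15550, chromosome 1, 5344478 to 5346166) stood at 2.48, 1.96 and 1.27 CPM in PAC+GA3, against 7.37, 8.39 and 10.2 CPM in PAC. The groups lay far apart in all 3 pairs, with log2 changes of -1.50, -2.01 and -2.83 and a fitted change of -2.13 ± 0.26 (SE, adjusted p = 0.00152). Both genes kept their call with any of the 12 libraries left out. GA3OX2, the second seedling GA 3-oxidase, had 1.24, 1.44 and 1.18 CPM in PAC+GA3, against 1.13, 1.95 and 1.69 CPM in PAC, and did not pass (-0.28 ± 0.34, adjusted p = 0.793). Of the 3 genes tested in these families, 2 were called lower, set beside 0.226% of all tested genes. The other 6 genes of these families did not pass the filter on low counts. The highest of them, GA20OX1, had 11 counts in all in the 3 PAC+GA3 libraries and 19 in the PAC libraries. GA20OX3 had 0 counts in PAC+GA3, against 10 in PAC.

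Genes of the early steps, from ent-kaurene synthase to the ent-kaurenoic acid oxidases, showed small differences. GA1, also in this list, did not pass the filter on low counts. None of the 4 tested was called, set beside 0.473% of all tested genes, and their log2 differences lay between -0.21 and -0.12. The gene of ent-kaurene oxidase, the enzyme that paclobutrazol inhibits (symbol GA3, AT5G25900), had 33.6, 35.5 and 35.6 CPM in PAC+GA3 libraries, against 37.4, 41.9 and 39.2 CPM in PAC libraries (-0.18 ± 0.08, adjusted p = 0.371). The groups did not overlap for this gene or for GA2, the gene of ent-kaurene synthase, but the differences stayed above the threshold. KAO2 and CYP88A3, the ent-kaurenoic acid oxidase genes, overlapped between the groups.

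GA 2-oxidases inactivate GA. No gene of the catabolism list was called among the 6 tested, although 5 had a positive difference and the median of the list was 0.43 on the log2 scale, against 0.00389 over all tested genes. GA2OX6 (AT1G02400) had 12.6, 12 and 8.91 CPM in PAC+GA3, against 7.71, 5.85 and 7.53 CPM in PAC, a difference of 0.66 ± 0.15 (SE) with an adjusted p of 0.0523. GA2OX2 (AT1G30040) had 4.31, 3.19 and 4.64 CPM in PAC+GA3, against 2.25, 1.95 and 2.35 CPM in PAC, a difference of 0.88 ± 0.24 with an adjusted p of 0.114. For both genes all PAC+GA3 libraries lay above all PAC libraries. GA2OX6 was called in 4 of the 25 alternative fits that gave it an adjusted p, and GA2OX2 in none. GA2OX8, CYP714A1 and GA2OX4 had differences of 0.48, 0.38 and 0.32, and CYP714A2, whose enzyme also inactivates GA, had -0.96 ± 0.46 at low counts. Of the 6 tested, 3 stood wholly higher, CYP714A1 among them, and 1, CYP714A2, stood wholly lower. Over all tested genes these shares were 5.89% and 5.94%. The other 3 genes of the list (GA2OX1, GA2OX3 and GA2OX7) had at most 7 counts in either group and were not tested.

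**Figure D2:**
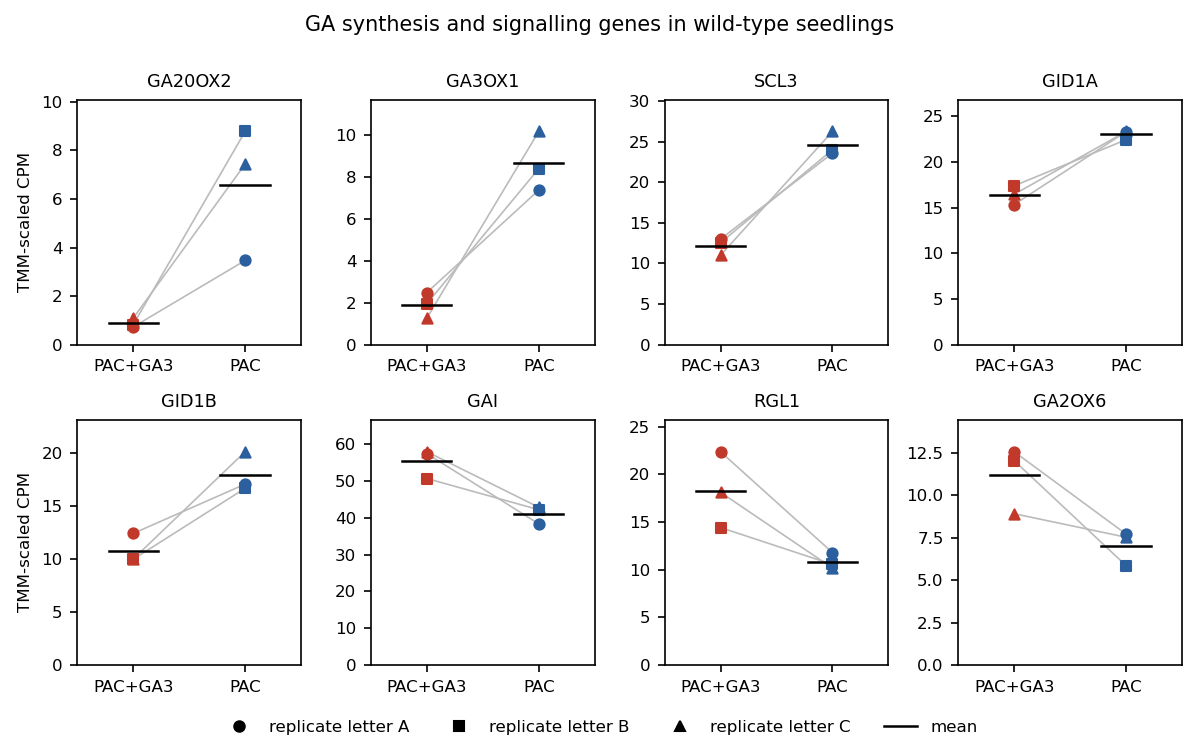
TMM-scaled CPM (vertical axis, from 0, scaled for each gene) of 8 GA genes in the 3 PAC+GA3 libraries (left, red) and the 3 PAC libraries (right, blue) of wild type, with grey lines joining libraries of the same letter and black bars at the means. GA20OX2, GA3OX1, SCL3, GID1A and GID1B lie lower and GAI, RGL1 and GA2OX6 higher in every PAC+GA3 library. GA2OX6 did not pass the test (adjusted p = 0.0523).

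RNA of the receptor genes GID1A and GID1B fell, while RNA of the DELLA genes RGL1 and GAI rose. GID1A (AT3G05120, chromosome 3, 1430471 to 1432778) had 15.3, 17.4 and 16.5 CPM in PAC+GA3, against 23.3, 22.4 and 23.3 CPM in PAC, a change of -0.49 ± 0.09 (SE, adjusted p = 0.0148). GID1B (AT3G63010, chromosome 3, 23289425 to 23291486), whose promoter above holds the IDD core, had 12.4, 9.98 and 10.0 CPM in PAC+GA3, against 17.1, 16.7 and 20.1 CPM in PAC (-0.72 ± 0.14, adjusted p = 0.026). The groups stood apart in both genes. GID1C, the third receptor gene, had 21.2, 20.8 and 17.0 CPM in PAC+GA3, against 17.7, 20 and 15.4 CPM in PAC, overlapped, and was not called (0.15 ± 0.11, adjusted p = 0.621). Of the 8 receptor and DELLA genes, 2 were called higher and 2 lower, set beside 0.246% and 0.226% of all tested genes. Among the 5 DELLA genes, RGL1 and GAI rose and all 5 had positive differences, while the median over all tested genes was 0.00389. RGL1 (AT1G66350) had 22.4, 14.4 and 18.1 CPM in PAC+GA3, against 11.8, 10.5 and 10.2 CPM in PAC (0.76 ± 0.13, adjusted p = 0.00827). GAI (AT1G14920) had 57.5, 50.7 and 58.0 CPM in PAC+GA3, against 38.4, 42.2 and 42.9 CPM in PAC (0.43 ± 0.08, adjusted p = 0.0158). RGA1, the DELLA gene also known as RGA, had 139, 127 and 146 CPM in PAC+GA3, against 124, 119 and 118 CPM in PAC, without overlap, but did not pass (0.18 ± 0.07, adjusted p = 0.284). RGL2 and RGL3 overlapped, with differences of 0.25 and 0.16. All 4 calls of this group were lost without the block, without PAC replicate 1 and without PAC replicate 3, with adjusted p-values over the libraries left out of up to 0.0926 for RGL1, 0.0977 for GID1A, 0.118 for GAI and 0.282 for GID1B. RGL1, GID1A and GAI were also lost without PAC+GA3 replicate 1, GID1A, GAI and GID1B without PAC+GA3 replicate 3, and GID1B without PAC replicate 2 or PAC+GA3 replicate 2.

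Of the proteins that work with DELLA, SCL3 was the only gene called among 13 tested, set beside 0.226% of all tested genes called lower. SCL3 (AT1G50420, chromosome 1, 18677926 to 18680117) encodes a GRAS protein that promotes GA responses, binds DELLA proteins and IDD proteins, and is itself switched on by DELLA. It had 13.0, 12.6 and 11 CPM in PAC+GA3, against 23.6, 24 and 26.3 CPM in PAC. The replicates of each group lay close together, and the log2 change was -1.0 ± 0.12 (SE, adjusted p = 0.000966). The call held with any 1 library left out and in 24 of the 26 alternative fits. The RING-type gene AT4G19700 (symbol RING, also BOI), whose protein binds DELLA, had 8.99, 7.31 and 7.09 CPM in PAC+GA3, against 13.2, 12.9 and 11.7 CPM in PAC, with an adjusted p of 0.0659 (-0.68 ± 0.16). Its relatives BRG1, BRG2 and BRG3 lay between -0.04 and 0.11. SPY, the O-fucosyltransferase that modifies DELLA, and the F-box gene SLY1 had lower values in every PAC+GA3 library, with differences of -0.25 ± 0.09 and -0.29 ± 0.12 that did not pass. The IDD genes IDD1, IDD5, JKD and MGP, SEC and the F-box gene SLY2 overlapped between the groups, with differences from -0.37 to 0.02.

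**Figure D3:**
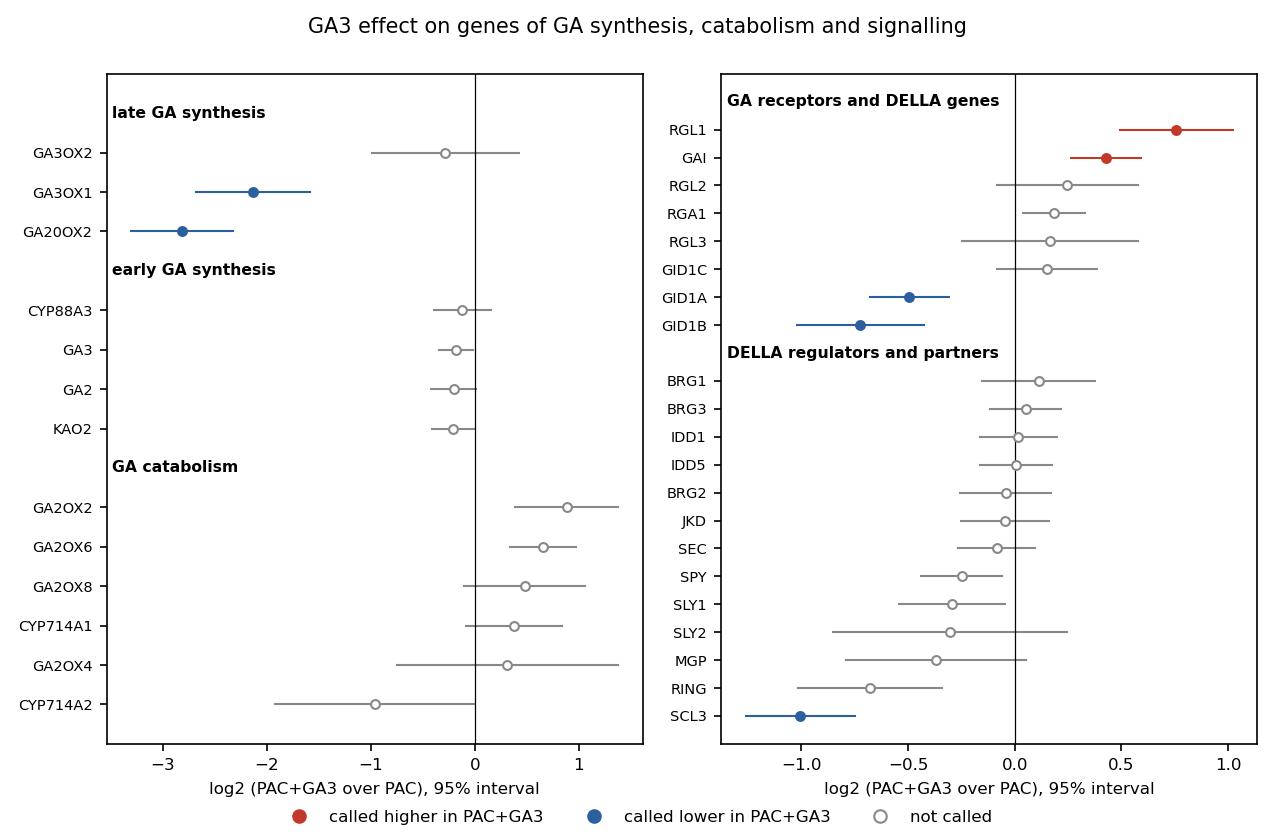
Log2 change of PAC+GA3 over PAC in wild type (horizontal axis, with different scales in the 2 panels) with 95% intervals for every tested gene of 5 lists of GA genes. Filled points are called, red for higher and blue for lower. The called genes are GA20OX2, GA3OX1, GID1A, GID1B and SCL3 below 0, and RGL1 and GAI above 0.

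Among small proteins and carriers tied to GA, the picture was mixed. GASA genes encode small cysteine-rich proteins, several of which respond to GA. Here and in the paragraphs that follow, members that were not called of a list with a call were picked for mention after their values were seen. GASA4 (AT5G15230) rose, with 283, 300 and 252 CPM in PAC+GA3, against 221, 212 and 201 CPM in PAC (0.40 ± 0.07, adjusted p = 0.0189). It was the only one of 5 tested to be called, set beside 0.246% of all tested genes called higher. GASA6 had 248, 277 and 368 CPM in PAC+GA3, against 219, 171 and 216 CPM in PAC (0.55 ± 0.14, adjusted p = 0.138). GASA5 lay in the other direction, with 8.55, 7.51 and 6.09 CPM in PAC+GA3, against 13.6, 9.07 and 13.3 CPM in PAC (-0.70 ± 0.18, adjusted p = 0.102). Neither of these passed although their groups did not overlap. The GASA4 call was lost without the block, without PAC replicate 2 or 3 and without PAC+GA3 replicate 1 (adjusted p up to 0.175). Of 2 tested genes of GA transporters, AT1G68570, the GA importer gene NPF3.1, had 23.5, 21.1 and 24.1 CPM in PAC+GA3, against 33.9, 27.1 and 30.9 CPM in PAC, just short of the threshold (-0.42 ± 0.09, adjusted p = 0.0506). SWEET13, a sucrose carrier that also moves GA, had 1.83, 2.57 and 2.55 CPM in PAC+GA3, against 1.04, 0.585 and 1.13 CPM in PAC (1.30 ± 0.37, adjusted p = 0.137).

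Expansins loosen the wall so that cells can grow, and 4 of the 24 tested rose while none fell, set beside 0.246% of all tested genes called higher. The list held 16 positive and 8 negative differences, with a median of 0.07 on the log2 scale. EXPA2 (AT5G05290, chromosome 5, 1568694 to 1569864), whose promoter above holds a G-box, had the largest rise of any called gene. It had 6.94, 4.32 and 4.55 CPM in PAC+GA3, against 1.21, 0 and 0.376 CPM in PAC, which rests on 187 counts in all in PAC+GA3 and 18 in PAC. The lowest PAC+GA3 library lay well above the highest PAC library, and the fitted change was 3.3 ± 0.43 (SE, adjusted p = 0.00555). EXPA1 (AT1G69530) had 108, 89.3 and 122 CPM in PAC+GA3, against 60.1, 70.3 and 67.7 CPM in PAC (0.68 ± 0.11, adjusted p = 0.0148). EXP3 (AT2G37640, expansin A3) had 150, 134 and 145 CPM in PAC+GA3, against 128, 95.6 and 100.7 CPM in PAC (0.41 ± 0.08, adjusted p = 0.017). Both stood wholly higher in PAC+GA3. EXPA8 (AT2G40610) had 33.4, 27.1 and 46.5 CPM in PAC+GA3, against 21.8, 16.9 and 31.7 CPM in PAC (0.61 ± 0.10, adjusted p = 0.00682). Its groups overlapped, with letter C high in both, and within the pairs the change was 0.61, 0.68 and 0.55. The expansin-like genes EXLA1 and EXLA2 and the expansin gene EXPA6 also stood wholly higher without being called, with differences of 0.55, 0.49 and 0.24. Of the 24 tested, 6 stood wholly higher and 2 wholly lower, set beside 5.89% and 5.94% of all tested genes. EXPA17 had the lowest difference, -0.82 ± 0.26, also not called. None of the 4 calls held without the block. EXPA2 was also lost without PAC replicate 3 (adjusted p = 0.0977) and EXPA8 without PAC replicate 2 (adjusted p = 0.0639). EXPA1 was lost without replicate 1 or 3 of either group (up to 0.124), and EXP3 without PAC replicate 2 or 3 or PAC+GA3 replicate 3 (up to 0.188).

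XTH enzymes cut and rejoin the xyloglucan that ties cellulose fibres together. Of 28 tested, 3 rose and none fell, set beside 0.246% of all tested genes called higher (median 0.12, 18 positive and 10 negative). XTH18 (AT4G30280) had 31.6, 26.4 and 22.6 CPM in PAC+GA3, against 20.2, 15.2 and 13.6 CPM in PAC (0.72 ± 0.11, adjusted p = 0.00593). XTH16 (AT3G23730) had 46.0, 59.3 and 52.8 CPM in PAC+GA3, against 34.6, 43.1 and 42.3 CPM in PAC (0.39 ± 0.08, adjusted p = 0.0292). Both stood wholly higher in PAC+GA3. XTH24 (AT4G30270) had 179, 156 and 134 CPM in PAC+GA3, against 146, 99.2 and 111 CPM in PAC, with overlapping groups and changes of 0.30, 0.65 and 0.28 within the pairs (fitted 0.41 ± 0.09, adjusted p = 0.041). XTH12 (0.69 ± 0.15, adjusted p = 0.0506), XTH6 (0.33 ± 0.08, adjusted p = 0.0604) and XTH17 (0.94 ± 0.22, adjusted p = 0.0656) came close to the threshold. XTH17 and XTH18 are close relatives, as are XTH12 and XTH13, and how reads shared by such pairs were counted is not given in the sources used here. XTH18 lost its call without PAC replicate 3 (adjusted p = 0.08), XTH16 without any 1 of the 6 wild-type libraries (up to 0.163) and XTH24 without any wild-type library other than PAC+GA3 replicate 3 or without 35S::KNAT1 PAC replicate 1 or 2 or PAC+GA3 replicate 3 (up to 0.288), and none held without the block.

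**Figure D4:**
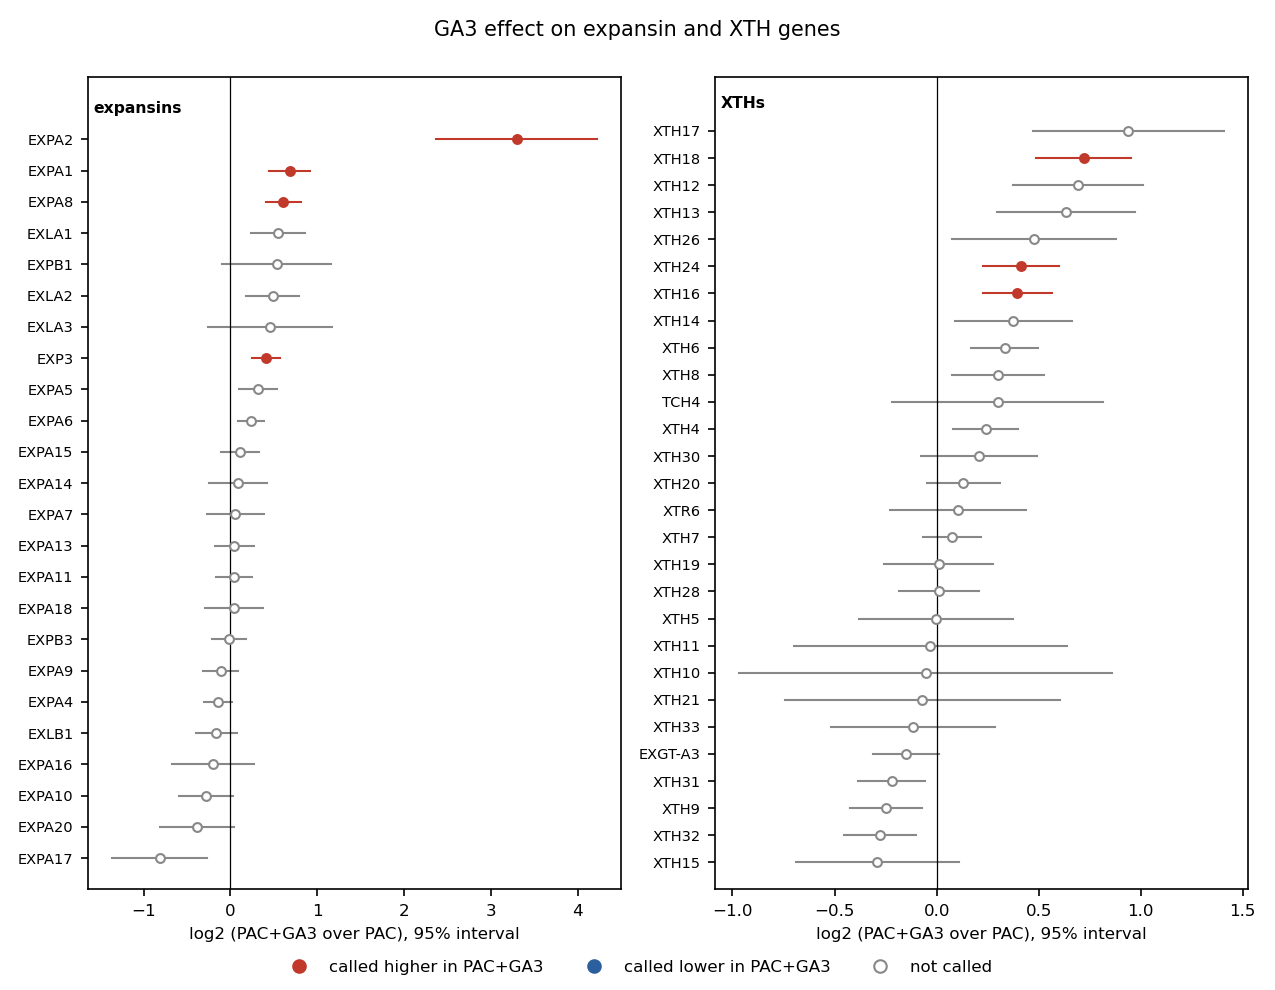
Log2 change of PAC+GA3 over PAC in wild type (horizontal axis, with different scales in the 2 panels) with 95% intervals for all 24 tested expansins and all 28 tested XTH genes, sorted by the change. Red filled points are called higher, open points are not called, and none was called lower. EXPA2 lies apart from the rest at 3.3.

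Other wall genes gave few calls. None of the 9 tested pectin methylesterase and polygalacturonase genes of the list was called, set beside 0.473% of all tested genes. The nearest was the polygalacturonase gene PGAZAT (AT2G41850), with 3.43, 4.73 and 3 CPM in PAC+GA3, against 3.99, 10.8 and 8.09 CPM in PAC (-0.98 ± 0.22, adjusted p = 0.051). None of 8 genes of primary wall cellulose synthesis, of 21 of the secondary wall and xylem or of 14 of lignin and phenylpropanoid synthesis was called. The medians of these last 3 lists were -0.08, 0.01 and -0.01, and the largest single differences were -0.50 for CESA9, 0.36 for NAC073 and -0.46 for 4CL3. Outside these lists, and chosen after their values were seen, several called genes encode wall proteins. AGP12, AGP21 and FLA2, genes of arabinogalactan proteins, rose by 0.47 ± 0.09, 0.48 ± 0.10 and 0.34 ± 0.07 on the log2 scale. AT3G07010, annotated as pectin lyase-like, and AT5G45280, a pectin acetylesterase, rose by 0.49 ± 0.08 and 0.33 ± 0.07. XYL4, a beta-xylosidase, AT5G19730, annotated as pectin lyase-like, and AT2G26440, a pectin methylesterase, changed by -0.49 ± 0.08, -0.52 ± 0.10 and -0.45 ± 0.09. Wall genes outside the expansin and XTH families went both ways, and FLA2 and AT2G26440 overlapped between the groups. All 8 of these calls were lost without PAC replicate 2 or 3. XYL4 was lost with no other library left out (adjusted p up to 0.107). AT3G07010 was also lost without PAC+GA3 replicate 1 or 3 (up to 0.13), AGP12 without replicate 1 of either group (up to 0.188), and AT5G19730 without PAC replicate 1 or PAC+GA3 replicate 1 or 3 (up to 0.207). The calls of FLA2, AGP21, AT5G45280 and AT2G26440 were lost without any 1 of 7, 7, 8 and 7 of the 12 libraries, 35S::KNAT1 libraries among them (up to 0.206, 0.26, 0.208 and 0.247).

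Of the auxin genes, 2 were called, set beside 0.226% of all tested genes called lower and 0.246% called higher. The Aux/IAA proteins repress auxin responses, and IAA27 (AT4G29080, symbol PAP2) fell, with 15.6, 17.8 and 18.1 CPM in PAC+GA3, against 20.1, 28.1 and 25.5 CPM in PAC (-0.51 ± 0.09, adjusted p = 0.0186). It was the only one called of 23 tested, and 19 of the 23 had differences above 0, the largest being 0.82 ± 0.23 for IAA19 (adjusted p = 0.134). Of 46 tested SAUR genes, small auxin-induced genes linked to cell expansion, AT3G53250 (SAUR57) rose. It had 6.14, 7.51 and 8.18 CPM in PAC+GA3, against 4.77, 4.10 and 3.67 CPM in PAC (0.78 ± 0.16, adjusted p = 0.0292). Of all 46, 36 lay above 0, with a median of 0.18. The median of the Aux/IAA genes was 0.13, and that of all tested genes was 0.00389. Both calls were lost without the block, without PAC replicate 2 or 3 and without PAC+GA3 replicate 3. IAA27 was also lost without PAC+GA3 replicate 1 (adjusted p up to 0.16) and AT3G53250 without PAC+GA3 replicate 2 (up to 0.282). None of 16 genes of auxin synthesis and conjugation and of 11 auxin carriers was called. YUC9, a gene of auxin synthesis, stood wholly higher in PAC+GA3 (0.61 ± 0.19, adjusted p = 0.191).

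RNA of several enzymes that turn flavonoids into anthocyanins fell after GA3. Of 10 tested genes of the late anthocyanin list, 4 fell, all of them enzymes or a carrier protein, and none rose, set beside 0.226% of all tested genes called lower. These are genes of low level here, and the counts behind them are few. DFR (AT5G42800, chromosome 5, 17164141 to 17165918), which makes leucoanthocyanidins, had 0.511, 1.44 and 2 CPM in PAC+GA3, against 5.98, 3.9 and 5.46 CPM in PAC, or 43 counts against 167 in all. LDOX (AT4G22880, chromosome 4, 12004768 to 12006209), the next enzyme, had 1.17, 1.44 and 2.09 CPM in PAC+GA3, against 5.11, 3.61 and 7.43 CPM in PAC, or 53 counts against 175. Every PAC+GA3 library lay below every PAC library in both genes. The log2 changes were -2.04 ± 0.34 (SE, adjusted p = 0.0125) for DFR and -1.79 ± 0.23 (adjusted p = 0.00152) for LDOX. UF3GT (AT5G54060), a glycosyltransferase gene also named UGT79B1 that decorates anthocyanins, had 0.146, 0.206 and 0.364 CPM in PAC+GA3, against 1.91, 1.07 and 1.88 CPM in PAC, 8 counts against 53 (-2.76 ± 0.49, adjusted p = 0.0148). GSTF12 (AT5G17220, also TT19), the glutathione transferase that carries anthocyanins to the vacuole, had 1.17, 1.23 and 0.909 CPM in PAC+GA3, against 4.16, 2.24 and 3.29 CPM in PAC (-1.55 ± 0.29, adjusted p = 0.0186). Their groups too did not overlap. AT4G14090, annotated with anthocyanin 5-O-glucosyltransferase activity and named here after its value was seen because its symbol did not match the list, had 1.31, 1.85 and 2 CPM in PAC+GA3, against 4.25, 3.41 and 4.99 CPM in PAC (-1.31 ± 0.27, adjusted p = 0.0292). Within the list, no regulator was called, and whether regulators and enzymes differed was not tested. TTG1, GL3, EGL3, CPC and MYBL2 overlapped between the groups and were not called, with differences from -0.28 to 0.39, while PAP1 and TT8 were too low to be tested.

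The list of early flavonoid and flavonol genes had smaller differences than the called anthocyanin genes. FLS1 (AT5G08640), which makes flavonols from the same precursors that DFR uses, had 26.3, 23.3 and 28.7 CPM in PAC+GA3, against 40.7, 33.5 and 36.7 CPM in PAC (-0.50 ± 0.10, adjusted p = 0.026). It was the only gene called of the 9 tested in the early flavonoid list, set beside 0.226% of all tested genes called lower. Chalcone synthase (TT4), the first enzyme of the pathway, had 110, 95.2 and 108 CPM in PAC+GA3, against 163, 130 and 154 CPM in PAC (-0.51 ± 0.11, adjusted p = 0.0523), and the flavonol regulator MYB111 had -0.72 ± 0.21 (adjusted p = 0.165). Both stood wholly lower in PAC+GA3 without passing. F3H, UGT78D2, TT7 and MYB12 lay between -0.33 and -0.20, and TT5 and UGT78D1 at 0.00 and -0.02. Of the flavonoid calls, LDOX alone held with any 1 library left out. DFR was lost without replicate 1 of either group (adjusted p up to 0.0588), UF3GT without replicate 1 or 3 of either group (up to 0.0977), GSTF12 and AT4G14090 without any wild-type library other than PAC+GA3 replicate 2 (up to 0.12 and 0.143) and FLS1 without any wild-type library other than PAC+GA3 replicate 3 (up to 0.225). None of the 6 held without the block.

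**Figure D5:**
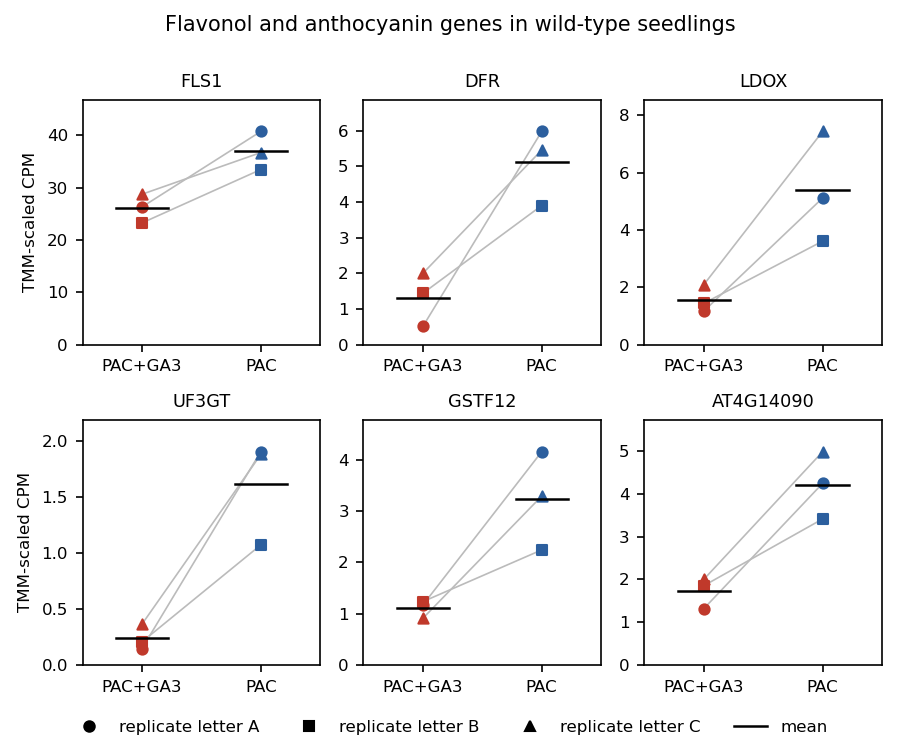
TMM-scaled CPM (vertical axis, from 0, scaled for each gene) of FLS1 and 5 anthocyanin genes in the 3 PAC+GA3 libraries (left, red) and the 3 PAC libraries (right, blue) of wild type, with grey lines joining libraries of the same letter and black bars at the means. In all 6 genes every PAC+GA3 library lies below every PAC library.

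Among the other hormones and stress responses, ACS11 and TAT3 were the called members. ACS11 (AT4G08040), one of the genes for the enzyme that makes the ethylene precursor ACC, rose, with 14.8, 13.6 and 20.5 CPM in PAC+GA3, against 9.36, 8.29 and 9.50 CPM in PAC (0.84 ± 0.13, adjusted p = 0.00581). It was the only call of 11 tested ethylene synthesis genes, set beside 0.246% of all tested genes called higher. The ACC oxidase gene EFE had 846, 916 and 884 CPM in PAC+GA3, against 716, 698 and 562 CPM in PAC, and stayed just above the threshold (0.43 ± 0.09, adjusted p = 0.0506). TAT3 (AT2G24850), a tyrosine aminotransferase gene that responds to jasmonate, had 8.18, 8.03 and 2.36 CPM in PAC+GA3, against 3.9, 1.95 and 1.13 CPM in PAC. The groups overlapped and letter C was low in both (1.43 ± 0.30, adjusted p = 0.047), and the call was lost without any wild-type library other than PAC+GA3 replicate 1 and without 35S::KNAT1 PAC replicate 1 or 3 or PAC+GA3 replicate 3 (up to 0.251). ACS11 was lost without PAC replicate 3 (adjusted p = 0.0909). TAT3 was the only call among 18 jasmonate genes, set beside the same 0.246%, and none of 10 JAZ genes was called. OPR1, an oxophytodienoate reductase gene outside the list and chosen after its value was seen, rose by 0.48 ± 0.08 on the log2 scale and was lost without PAC replicate 1 or 3 (up to 0.147). No gene was called among 14 of salicylate defence, 19 of abscisic acid, 18 of cytokinin, 15 of brassinosteroid metabolism, 18 growth bHLH and shade genes, 11 of low oxygen, 10 of wounding and touch, 13 of the clock, 5 CYP78A genes and 27 cyclins. With 0.473% of all tested genes called, the lack of a call in lists of this size does not show a lack of response. Some members of these lists stood wholly apart. PRE1, a growth-promoting bHLH gene, had 5.55, 6.69 and 10.0 CPM in PAC+GA3, against 3.99, 2.73 and 3.86 CPM in PAC (1.05 ± 0.30, adjusted p = 0.173). XERICO, a RING gene tied to abscisic acid that DELLA proteins activate, had 11.8, 12.4 and 13.7 CPM in PAC+GA3, against 15.9, 19.0 and 16.9 CPM in PAC (-0.45 ± 0.10, adjusted p = 0.0518). IPT3, a gene of cytokinin synthesis, had 12.3, 12 and 13.1 CPM in PAC+GA3, against 16.8, 17.8 and 19.0 CPM in PAC (-0.51 ± 0.12, adjusted p = 0.0547). BAS1, a brassinosteroid-inactivating gene, had -0.79 ± 0.22 (adjusted p = 0.12).

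The remaining largest changes were spread over many functions. CAX1 (AT2G38170), the vacuolar calcium/proton exchanger, fell, with 213, 244 and 223 CPM in PAC+GA3, against 357, 365 and 306 CPM in PAC (-0.60 ± 0.08, adjusted p = 0.00214). It was the only one of 9 exchangers called, set beside 0.226% of all tested genes called lower. Of the genes that rose most, scpl44, a serine carboxypeptidase-like gene, had 7.82, 3.70 and 6.09 CPM in PAC+GA3, against 2.51, 1.85 and 1.41 CPM in PAC (1.60 ± 0.25, adjusted p = 0.00682). TYRDC, a tyrosine decarboxylase gene, had 7.60, 7.31 and 7.46 CPM in PAC+GA3, against 3.9, 3.51 and 3.86 CPM in PAC (0.98 ± 0.17, adjusted p = 0.0112). These 3 genes stood wholly apart, TYRDC with replicates nearly equal within each group. RGF9, a gene of a small secreted peptide of the root growth factor family, had 12.4, 11.5 and 21.2 CPM in PAC+GA3, against 7.45, 7.02 and 9.03 CPM in PAC (0.92 ± 0.15, adjusted p = 0.00705). ADS1 (AT1G06080), a fatty acid desaturase gene, had 121, 113 and 106 CPM in PAC+GA3, against 80.6, 72.6 and 53.3 CPM in PAC (0.73 ± 0.10, adjusted p = 0.00152). RCI2B, a small membrane protein gene induced by cold, had 42.4, 39.2 and 38.1 CPM in PAC+GA3, against 27.0, 26.8 and 25.1 CPM in PAC (0.60 ± 0.08, adjusted p = 0.00152). All of these were wholly higher in PAC+GA3. CAX1, ADS1 and RCI2B held with any 1 library left out. RGF9 was lost without replicate 3 of either group (up to 0.111), TYRDC without any PAC replicate or PAC+GA3 replicate 3 (up to 0.0909) and scpl44 without replicate 1 or 3 of either group (up to 0.126).

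Among the largest falls outside the pathways above, TRM13, a gene of the TON1 recruiting motif family, had 2.70, 3.29 and 2.36 CPM in PAC+GA3, against 4.68, 6.15 and 6.77 CPM in PAC (-1.05 ± 0.21, adjusted p = 0.026). CYP71B26, a cytochrome P450 gene, had 9.64, 5.97 and 6.09 CPM in PAC+GA3, against 14.7, 11.1 and 13.5 CPM in PAC (-0.84 ± 0.17, adjusted p = 0.0351). GMI1, a gene induced by gamma irradiation and mitomycin C, had 11.8, 8.33 and 9.55 CPM in PAC+GA3, against 18.1, 16.6 and 15.1 CPM in PAC (-0.74 ± 0.12, adjusted p = 0.00682). In these 3 genes every PAC+GA3 library lay below every PAC library. GMI1 lost its call without PAC replicate 3 (adjusted p = 0.0909), TRM13 without any wild-type library other than PAC+GA3 replicate 1 (up to 0.228) and CYP71B26 without any wild-type library other than PAC+GA3 replicate 1 or without 35S::KNAT1 PAC replicate 3 (up to 0.188). Outside the rule for named genes and chosen after their values were seen, AT1G18980, of the cupin superfamily that holds the germin-like proteins, and AT1G33790, a jacalin lectin gene, were called in 24 of the 26 alternative fits. AT1G18980 had 41.1, 31.5 and 28.3 CPM in PAC+GA3, against 20.6, 15.5 and 15.5 CPM in PAC (0.96 ± 0.10, adjusted p = 6.45e-05). AT1G33790 had 59.1, 53.1 and 51.5 CPM in PAC+GA3, against 88.3, 110 and 83.7 CPM in PAC (-0.78 ± 0.10, adjusted p = 0.00214). AMP1, a carboxypeptidase gene that limits shoot meristem size, had 11.8, 15.3 and 17.0 CPM in PAC+GA3, against 18.4, 25.2 and 26.3 CPM in PAC (-0.66 ± 0.10, adjusted p = 0.00538, lost without PAC replicate 3 at 0.08).

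Markers of organs and tissues were set beside these changes, since whole seedlings can differ in their make-up. No gene was called among 8 root hair, 8 root, 10 green shoot, 3 shoot meristem, 4 phloem and 5 seed markers or the 21 xylem genes. Over all tested genes 0.473% were called, so the lack of a call in lists this small does not show an unchanged make-up. The summed CPM of the lists overlapped between PAC+GA3 and PAC, at 48.1 to 105.1 against 50.6 to 83.6 for root hair, 112 to 143 against 127 to 134 for root, and 34516 to 44412 against 35144 to 37996 for green shoot. Of the 10 green shoot markers, 9 had a positive and 1 a negative difference (median 0.19). The median over all tested genes was 0.00389. The shoot meristem markers CLV3, WUS and UFO were too low to be tested. All 5 seed markers had negative differences (median -0.57), and PER1, a peroxiredoxin gene of seeds and embryos outside the list, was called. PER1 (AT1G48130) had 3, 1.03 and 3.36 CPM in PAC+GA3, against 7.63, 4.88 and 9.60 CPM in PAC (-1.59 ± 0.22, adjusted p = 0.00581, lost without PAC replicate 3 at 0.0977). The oleosin gene OLEO2 had 2.19, 0.823 and 2.18 CPM in PAC+GA3, against 4.68, 3.02 and 7.81 CPM in PAC, and was not called (-1.53 ± 0.41, adjusted p = 0.18). Both were lowest in letter B in either medium and did not overlap between the groups. The storage protein gene CRU3 overlapped, with 57.1, 15.6 and 31.3 CPM in PAC+GA3, against 48.1, 13.9 and 51.8 CPM in PAC (-0.12 ± 0.26). The summed seed list ran from 36.1 to 113.5 CPM in PAC+GA3 and from 45.7 to 136.8 CPM in PAC, and its part in the PER1 value was not tested.

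The same model held the test of whether GA3 acted differently in 35S::KNAT1 seedlings. No gene was called for this difference by edgeR over all 19879 genes, although 580 had a p below 0.05 before adjustment, and the smallest adjusted p among the 94 wild-type calls was 1. The difference of the effect, 35S::KNAT1 minus wild type, was -0.08 on the log2 scale for GA20OX2 (95% interval -0.86 to 0.70) and -0.12 for GA3OX1 (-0.95 to 0.72). These intervals do not show that the effects were alike. Among the 94 genes, 21 had a p below 0.05 for the difference before adjustment. The estimated difference lay below 0 in 48 of the 49 higher genes and above 0 in 30 of the 45 lower genes. The genes were called in the same wild-type libraries that enter the difference, so these counts are no independent measure. Chosen after their values were seen, RGF9 had a difference of -0.91 (-1.37 to -0.45) and EXPA8 one of -0.61 (-0.92 to -0.30), both with an adjusted p of 1.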

How the data were processed

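Per the labels' protocols, RNA of whole seedlings was sequenced, and both RNeasy and Trizol extraction and both TruSeq RNA and TruSeq Stranded mRNA kits are named, without saying which library used which. The authors deposited 1 table of raw read counts per gene. Per the submitters' processing notes the build was TAIR10 and the tools named, with no role given, were TopHat2 2.1, FastQC 0.11.5, cutadapt 1.8.3, edgeR 3.0.2 and DESeq2 1.16.1. No source used here gives the counting tool, its strand setting or how it treated shared reads, so overlapping genes and close relatives are uncertain.

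Genes were filtered with edgeR 4.0.16 (R 4.3.3, minimum count 10), scaled by TMM and tested with its quasi-likelihood test (robust), with 4 group means and the replicate letter as a block over 12 libraries and Benjamini-Hochberg adjustment over 19879 genes at 0.05. Values in CPM are TMM-scaled. The block on the letter was set with the comparison, with earlier results of these data known. Between wild-type media, deviations of same-letter libraries correlated at 0.359, 0.17 and 0.288. These correlations were a further ground for the block, but they come from the same libraries and are not independent. The biological coefficient of variation was 8.88% and 6 residual degrees of freedom remained. The fit was tested on simulated data. Alternatives used DESeq2 1.42.0, other scalings, filters, blocks and left-out libraries.

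The members and the 39 gene lists were chosen with earlier results of these data known. List symbols were matched to a gene's symbol, its deposited name or a synonym. Of the matches, 24 were removed as another gene of the same name, and 24 symbols found no match. The text names every measured gene of the 5 GA synthesis, catabolism, receptor and partner lists. From other lists it names called members, at most 6 by smallest p, or else the 2 of smallest p, some of which are given only in the counts. It also names genes among the 12 largest rises and 12 largest falls of called genes with a symbol, a mean of at least 1 CPM in either medium and the same direction in all pairs. All other genes, among them every named gene that was not called from a list with a call, were chosen after their values were seen.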

Additional observations from a re-analysis of the deposited data

How the results depend on the processing

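All 26 alternatives set out at the start were run, and none reversed any of the 94 calls. These fits share the libraries from which the genes were called, so the kept directions are no independent support. The count depended on the replicate block. It was 9 without the block and 238, the highest of all alternatives, with the block fitted within each genotype. The 6 wild-type libraries alone gave 164 calls with the block, 80 of the 94 among them, and 2 without it. Leaving out 1 of the 12 libraries gave 16 to 129 calls. Leaving out letter A, B or C gave 165, 38 and 4 calls, and 0 remained by edgeR without the 3 libraries of high rRNA share, with 872 at an unadjusted p below 0.05. The fits without letter A, B or C kept 50, 28 and 4 of the 94. DESeq2's Wald test called 100 genes, 70 of the 94 among them, with 16 of the 94 given no adjusted p. Other scalings and filters gave 83 to 140 calls. The difference of the GA3 effect between genotypes gave 3 calls with the block within each genotype, against 0 in the reported fit, and the cause was not tested. Of the 94 genes, 18 were called in at least 20 alternatives. GA20OX2 lost its call in the 6 wild-type libraries without the block (adjusted p = 0.0625) and without the high-rRNA libraries (0.0613), and SCL3 and GA3OX1 without letter C (both 0.102) and without the high-rRNA libraries (0.215 and 0.385). Among 75 named genes that were not called, 10 were called under at least 1 alternative and 14 changed sign. Precision is limited by 3 libraries a group and by low counts in the anthocyanin genes and EXPA2.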
